A study of Mus musculus with 18 samples.

Results

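The 47 genes described here drive the G2 phase and mitosis. The rule for choosing them used symbols and no measured value, namely the rows of the count table on a list of mitotic regulators, but the list was drawn up with earlier results of these data known. All 47 were found among its 24047 rows. Each was counted well above the floor of detection, with raw counts from 27 to 10981 over the 18 libraries. RNA-Seq counts came from colon crypts, the epithelial pits that hold the stem cells and dividing cells of the large intestine, freed from the tissue of C57BL/6 mice with EDTA. The labels gave 6 groups of 3 libraries, each a genotype, WT or Ern2-/-, in one of 3 microbial states. CONV means conventional rearing under SPF conditions and GF means germ free. The COLONIZED state began germ free and was examined 14 days after a single gavage with cecal homogenate from WT donors, in both genotypes. Ages at harvest, and which matings gave these mice, are not given in the sources used here. The comparisons ask how crypts respond to microbes and whether that depends on Ern2, which encodes an endoplasmic reticulum stress sensor of mucus-secreting epithelium.

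Cells enter mitosis when cyclin B activates the kinase Cdk1, and the wave of mitotic transcripts that precedes this is switched on late in the cycle by the factors B-Myb (Mybl2) and FoxM1. The products condense the chromosomes, build the spindle and its kinetochore attachments, hold the cell at the spindle checkpoint until every chromosome is attached, and then, once the anaphase promoting complex destroys securin and cyclin B, part the chromosomes and divide the cell. In the colon these transcripts come from the transit-amplifying cells and stem cells of the lower crypt and are lost as cells move up and differentiate.

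Depth varied over the libraries, whose totals lay between 5.87 and 23.2 (unit 1e6 counts), and the lowest 3 belonged to CONV-Ern2-/- replicates 2 and 3 and CONV-WT replicate 3. Normalized counts here are counts divided by DESeq2 size factors over the 18 libraries, and they compare libraries, not genes. Fold changes come from a fit on the 6 libraries of each comparison. Normalized counts of Ern2 were 1909 to 3100.3 in the 9 WT libraries and 386 to 3336 in the 9 libraries labelled Ern2-/-, so the ranges overlapped. The part of the gene that was deleted is not given in the sources used here, so these counts do not check the genotype, and Ern2-/- below means the label. Summed normalized counts were 162444 to 236600 for 9 epithelial markers, against 76.1 to 331 for 16 immune, 191 to 552 for 11 mesenchymal, 42.3 to 177 for 6 endothelial and 1.89 to 23.1 for 4 glial markers. CONV-WT replicate 3 and GF-Ern2-/- replicate 2 had the lowest ratios of Mki67 to Top2a counts, 0.604 and 0.937, the second of them close to the next value, 0.964 in CONV-Ern2-/- replicate 2, and the ratio reached 2.23 in the other libraries. Transcripts of at least 6000 exon bases, taken against those under 2000, were lower by 0.24 and 0.37 on the log2 scale in CONV-WT replicate 3 and GF-Ern2-/- replicate 2 and by 0.41 in CONV-Ern2-/- replicate 3, relative to the mean of all libraries. They were higher by 0.39 in COLONIZED-Ern2-/- replicate 2 and by 0.33 in GF-WT replicate 3, the libraries with the highest and the lowest median of the 47 genes, and 16 of the 47 are of that length. Sex is not in the labels. Summed counts of Y-linked genes exceeded those of Xist in none of the WT libraries from germ-free mice, 2 of those from COLONIZED and 1 from CONV mice. They did so in 2, 2 and all 3 of the Ern2-/- libraries of these states. Below, libraries with Y-linked counts are those with this pattern and libraries without them are the rest.

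Many promoters of this class carry a CHR element (cell cycle genes homology region), the site through which the DREAM, B-Myb and FoxM1 complexes act, and CCAAT boxes bound by NF-Y. The 150 bases before the RefSeq start site (GRCm38.p6, the mm10 assembly) are shown for 4 genes whose values recur below, with CHR elements (TTTGAA or TTCGAA) and CCAAT on either strand in capitals:
Mki67 (chr7:135716380-135716529, minus strand): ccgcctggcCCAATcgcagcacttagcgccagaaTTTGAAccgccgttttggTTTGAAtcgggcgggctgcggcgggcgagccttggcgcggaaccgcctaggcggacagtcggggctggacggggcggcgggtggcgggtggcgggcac
Top2a (chr11:99024190-99024339, minus strand): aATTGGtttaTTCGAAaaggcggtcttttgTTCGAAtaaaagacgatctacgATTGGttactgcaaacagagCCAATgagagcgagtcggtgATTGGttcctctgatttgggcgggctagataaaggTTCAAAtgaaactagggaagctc
Cdk1 (chr10:69352913-69353062, minus strand): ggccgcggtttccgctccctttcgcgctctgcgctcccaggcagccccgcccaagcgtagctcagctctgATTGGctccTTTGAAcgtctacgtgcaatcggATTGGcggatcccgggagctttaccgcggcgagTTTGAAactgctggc
Cdc20 (chr4:118437344-118437493, minus strand): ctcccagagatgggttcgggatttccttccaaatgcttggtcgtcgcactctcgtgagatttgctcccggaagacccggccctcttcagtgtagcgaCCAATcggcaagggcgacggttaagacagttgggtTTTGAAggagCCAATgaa
Mki67 lies at chr7:135689784-135716361 on the minus strand, Top2a at chr11:98992943-99024189 on the minus strand, Cdk1 at chr10:69335146-69352938 on the minus strand and Cdc20 at chr4:118432901-118437352 on the minus strand (GENCODE M21, GRCm38). The CHR element nearest the start lay 23 bases before it in Top2a, 15 in Cdk1, 18 in Cdc20 and 98 in Mki67. RefSeq windows of 250 bases before to 50 after a start were at hand for 39 of the 47 genes. A CHR element on either strand was present in 30 of those 39 (76.9%), against 21.7% of 27025 genes with such a window, 60.6% of 71 other mitosis genes and 18.8% of 32 DNA replication genes. Near the start, from 60 bases before to 50 after, the shares were 69.2% of the 39 and 6.79% of all genes. CCAAT occurred in 71.8% of the 39 and 41.1% of all, and both kinds of element in 66.7% and 8.61%. Such a match describes the letters and is not a measured binding site.

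The 47 transcripts moved largely as a block from library to library. For each library the median over the genes of the log2 normalized count, taken as a difference from the gene's mean over 18 libraries, was -0.15, -0.43 and -0.85 in GF-WT and -0.23, -0.68 and -0.56 in GF-Ern2-/-. It was 0.29, 0.32 and 0.38 in COLONIZED-WT and 0.53, 0.62 and 0.44 in COLONIZED-Ern2-/-. Every colonized library thus lay above every germ-free library, in both genotypes. In CONV-WT it was 0.49, 0.50 and -0.02 and in CONV-Ern2-/- -0.07, -0.15 and -0.27, so the genotypes did not overlap among conventionally raised mice, with CONV-WT replicate 3 the nearest to the Ern2-/- libraries. The group with the highest mean was COLONIZED-Ern2-/- for 34 of the 47 genes, CONV-WT for 9, COLONIZED-WT for 3 and GF-Ern2-/- for 1, and the lowest mean was in GF-WT for 24, GF-Ern2-/- for 17, CONV-Ern2-/- for 5 and COLONIZED-Ern2-/- for 1. The 47 genes together took 0.116% to 0.389% of all counts in a library. These are bulk crypts, so a smaller share of dividing cells and less of each transcript per dividing cell cannot be told apart.

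**Figure D1:**
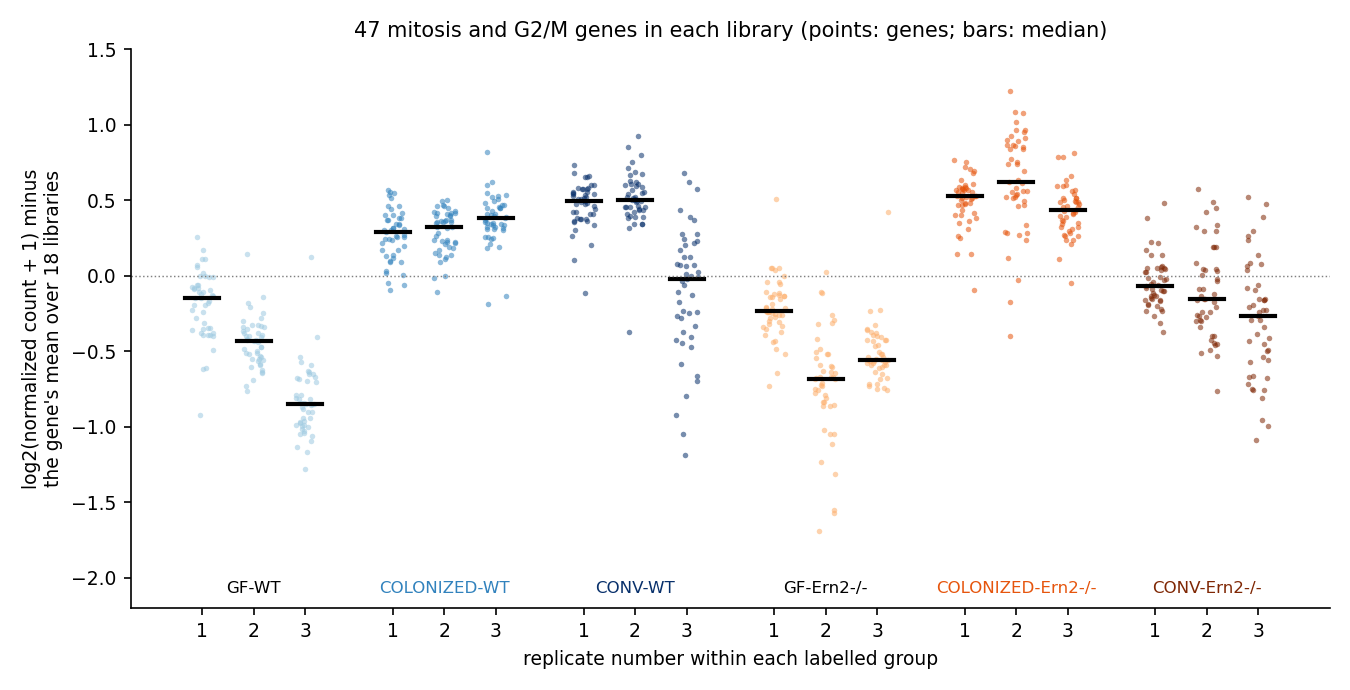
Each point is 1 of the 47 genes in 1 library, as log2(normalized count + 1) minus that gene's mean over the 18 libraries, and bars are medians. All medians of the COLONIZED groups lie above 0 and all of the GF groups below it, and CONV-WT replicate 3 lies at -0.02 where the other CONV-WT libraries lie at 0.49 and 0.50.

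The comparison of COLONIZED-WT with GF-WT asks what microbes change in WT crypts. Of the 47 genes 38 were higher in COLONIZED-WT at an adjusted p under 0.01 (DESeq2's Wald test on the 6 libraries, adjusted over all genes tested), none was lower, and the median change was 0.81 on the log2 scale, against -0.01 over all genes. Among all genes 9.07% were called higher. Ranges of the libraries did not overlap, with COLONIZED-WT higher, for 45 genes, against 22.8% of all genes. The quasi-likelihood test of edgeR called 12 of the 47, where it called 3.12% of all genes higher. In Ern2-/- mice the matching comparison called 39 genes higher and none lower, against 3.83% of all genes, with a median of 1.00 against -0.02, and 46 genes did not overlap, against 16.6%. There edgeR called 0 of the 47, with its lowest adjusted p at 0.0147, though 47 had an unadjusted p under 0.05. Libraries of a group are separate samples in the labels, and the study plots RNA-Seq values of conventionally raised mice by individual mouse. The caption of the figure with those plots calls the CONV-WT and CONV-Ern2-/- mice of its stained sections separately housed. Which of the sequenced mice shared a litter or a cage is not given in the sources used here, so p-values measure the spread between these samples.

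Both comparisons called 32 of the genes, which is 32 of the 38 in WT and 32 of the 39 in Ern2-/-. Bub3, Ccnb2, Ncapd2, Nusap1, Spc24 and Ttk were called in WT alone and Anln, Cenpf, Ect2, Hmmr, Ncapg, Nuf2 and Spc25 in Ern2-/- alone. The test of the difference between the responses of the 2 genotypes called none of the 47 (DESeq2 interaction over 12 libraries, lowest adjusted p 0.844; 3 at an unadjusted p under 0.05 with DESeq2 and 3 with edgeR, which also called 0), against 0.028% of all genes, with a median difference of 0.15. Sex was uneven in WT, and with sex as a covariate 5 of the 47 had an adjusted p under 0.01 in WT and 37 in Ern2-/-. Shares of all genes are not given for fits with a covariate or with libraries left out. Counts from such fits, here and below, stand without that share. Among libraries without Y-linked counts, 46 of the 47 genes were higher in the 1 COLONIZED-WT library than in the mean of the 3 GF-WT libraries, by a median of 0.84. In Ern2-/- mice 46 of 47 were higher both among the libraries with Y-linked counts (2 against 2, median 1.02) and among those without (1 against 1, median 0.96). In WT there were 23, 22 and 21 calls without COLONIZED-WT replicate 1, 2 or 3 and 25 without GF-WT replicate 2. In Ern2-/- there were 24 without COLONIZED-Ern2-/- replicate 2 and 38 without GF-Ern2-/- replicate 2, the libraries in which long transcripts were respectively highest and near their lowest. Of the 16 genes of at least 6000 exon bases 11 were called in WT (median 0.69) and 13 in Ern2-/- (median 1.10), and of the other 31 genes 27 in WT (median 0.86) and 26 in Ern2-/- (median 0.98). The long genes were 4 of the 7 called in Ern2-/- alone (Anln, Cenpf, Ncapg and Nuf2) and 2 of the 6 called in WT alone, and the median difference between the genotypes' responses was 0.39 in the long genes and 0.12 in the others. The part of transcript length in these differences was not tested.

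Mybl2, the B-Myb factor that switches on many of the other genes, showed the largest rise in WT mice. Its normalized counts were 78.4, 87.6 and 72.2 in GF-WT and 219, 192 and 265 in COLONIZED-WT, a rise of 2.85-fold (95% interval 2.13 to 3.82, adjusted p = 2.23e-10). In Ern2-/- mice they were 89.5, 93.3 and 108 germ free and 239.95, 280.03 and 263 colonized, 2.69-fold (95% interval 1.98 to 3.65, adjusted p = 3.68e-08). Neither pair of groups came close to overlapping. Foxm1, the second of these factors, went from 523, 384 and 355 to 769, 747 and 710.5 in WT, 1.78-fold (95% interval 1.39 to 2.26, adjusted p = 5.97e-05), and from 483, 225 and 445 to 832, 800.5 and 747 in Ern2-/-, 2.06-fold (95% interval 1.38 to 3.07, adjusted p = 0.00574). The lowest of the germ-free Foxm1 counts was that of GF-Ern2-/- replicate 2. All 8 genes of the cyclins, kinases and transcription factors rose in WT, and 7 of 8 did in Ern2-/-, the exception being Ccnb2, a B-type cyclin (log2 fold change 0.75 ± 0.23 SE, adjusted p = 0.0124).

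Cdk1, the mitotic kinase, was counted at 608, 609 and 395 in GF-WT and 986, 1054 and 1147 in COLONIZED-WT, 1.99-fold (95% interval 1.54 to 2.59, adjusted p = 6.17e-06). The Ern2-/- libraries gave 644, 520.4 and 541 germ free and 1136, 999 and 1115 colonized, 1.9-fold (95% interval 1.49 to 2.43, adjusted p = 1.44e-05). Its partner cyclin B1, Ccnb1, rose in both genotypes as well. Ccnb1 counts went from 291, 224 and 160.4 to 391, 399 and 437 in WT, 1.83-fold (adjusted p = 0.000972), and from 263, 228 and 205 to 474, 519 and 399 in Ern2-/-, 1.99-fold (adjusted p = 0.000135). Plk1, the polo kinase needed for spindle poles and mitotic exit, went from 626, 436 and 341 to 826, 842 and 914 in WT, 1.86-fold (adjusted p = 0.000497), and from 575, 361 and 487 to 1082, 1017 and 919.7 in Ern2-/-, 2.12-fold (adjusted p = 6.34e-05). For each of these 3 genes every colonized library exceeded every germ-free one. Ccna2, cyclin A2, which acts from S phase to early mitosis, was among the 8 largest rises in Ern2-/- at 2.29-fold (adjusted p = 4.16e-07). Its exons share 510 annotated bases with those of Exosc9 on the opposite strand.

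The chromosomal passenger complex corrects faulty spindle attachments and later guides the cleavage of the cell. All 4 of its members rose in both genotypes, by 0.98 to 1.04 on the log2 scale in WT and 0.85 to 1.04 in Ern2-/-. Aurkb, its kinase, was counted at 415, 368 and 285 in GF-WT and 680.3, 726 and 733 in COLONIZED-WT, 2.02-fold (95% interval 1.6 to 2.55, adjusted p = 1.67e-07), and at 468, 333 and 396 and 754, 749 and 653 in the matching Ern2-/- groups, 1.8-fold (95% interval 1.36 to 2.37, adjusted p = 0.000883). Birc5, the survivin subunit, went from 438, 360.1 and 301 to 679.5, 775 and 743 in WT, 2.02-fold (adjusted p = 2.75e-07), and from 415, 325 and 395 to 783, 794 and 770.3 in Ern2-/-, 2.06-fold (adjusted p = 8.37e-07). The borealin subunit Cdca8 had the lowest adjusted p of the 47 in WT, with a rise of 2.06-fold (95% interval 1.7 to 2.5, adjusted p = 3.06e-11). In both genotypes the complex was roughly doubled in a narrow band.

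Of the 5 spindle checkpoint genes, which block anaphase while any kinetochore is unattached, all 5 rose in WT and 3 in Ern2-/-. Bub1b, the BubR1 arm of the checkpoint, went from 625, 532 and 435 to 866, 821 and 889 in WT, 1.63-fold (adjusted p = 0.000267), and from 585, 409 and 519 to 1038, 1072 and 929.8 in Ern2-/-, 2-fold (adjusted p = 3.76e-05). Mad2l1, the Mad2 protein that inhibits Cdc20, went from 400.2, 365 and 265 to 531, 608 and 751 in WT, 1.85-fold (adjusted p = 0.000253), and from 397, 434 and 331 to 705, 800.5 and 718 in Ern2-/-, 1.91-fold (adjusted p = 7.17e-05). Neither gene overlapped between the states. Bub1, the kinetochore kinase, was the gene with the largest rise of the 47 in Ern2-/-, from 167, 146 and 163 to 382, 548 and 404, 2.79-fold (95% interval 2.04 to 3.83, adjusted p = 3.10e-08), beside 1.69-fold (adjusted p = 0.00833) in WT. Bub3, which also serves outside mitosis, rose the least among the called genes in WT, by 1.35-fold (adjusted p = 0.0079), and was at 1.24-fold (adjusted p = 0.177) in Ern2-/-.

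Cdc20 and Ube2c, an activator and a ubiquitin-conjugating enzyme of the anaphase promoting complex, rose in both genotypes, and Pttg1 (securin), one of the proteins the complex destroys, did not. Cdc20 went from 719.8, 549.9 and 417 to 933, 955 and 895 in WT, 1.66-fold (adjusted p = 0.00222), and from 622, 425 and 482 to 1079, 871 and 885 in Ern2-/-, 1.85-fold (adjusted p = 0.00122). Ube2c went from 767, 649 and 449 to 1214, 1316 and 1271, 2.05-fold (adjusted p = 4.57e-06), and from 688, 564 and 582 to 1419, 1288 and 1133, 2.09-fold (adjusted p = 1.25e-06). Pttg1 was the only gene of the 47 with a negative estimate in either comparison. Its counts were 532, 491 and 485 in GF-WT and 417, 474 and 389.8 in COLONIZED-WT (log2 fold change -0.23 ± 0.15 SE, adjusted p = 0.254). They were 632, 452 and 595 in GF-Ern2-/- and 416, 337 and 429 in COLONIZED-Ern2-/- (-0.51 ± 0.22, adjusted p = 0.107). The colonized libraries lay below all the germ-free ones in both genotypes, and neither difference passed the test.

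At the kinetochore and centromere, 3 of 7 genes rose in WT and 5 of 7 in Ern2-/-. Cenpa, the histone H3 variant that marks the centromere, went from 433, 348 and 255 to 588, 630.2 and 584 in WT, 1.75-fold (adjusted p = 0.000738), and from 385, 269.7 and 334 to 608, 481 and 579.7 in Ern2-/-, 1.68-fold (adjusted p = 0.00872). Ndc80, which binds the microtubule ends, went from 139, 149 and 109 to 212, 262 and 227, 1.78-fold (adjusted p = 0.000403), and from 165, 136 and 116 to 289, 270.1 and 269.8, 1.98-fold (adjusted p = 0.000511). Both rose in the 2 genotypes without overlap. Cenpf, a large kinetochore protein of G2, was at 792, 581 and 397 and 878, 816 and 911 in WT, 1.48-fold (adjusted p = 0.0495), and went from 606, 227 and 493 to 1024, 1334 and 994 in Ern2-/-, 2.52-fold (adjusted p = 0.00182). Among its germ-free counts GF-WT replicate 1 was the highest and GF-Ern2-/- replicate 2 the lowest. Spc24, the Ndc80 complex subunit at its centromere end, had the second largest rise in WT, 2.08-fold (adjusted p = 2.87e-06), and stood at 1.53-fold (adjusted p = 0.049) in Ern2-/-. Cenpe, a kinetochore motor, was called in neither genotype, at 1.57-fold (adjusted p = 0.0442) in WT and 2.17-fold (adjusted p = 0.0144) in Ern2-/-.

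Among 7 spindle motors and microtubule proteins, 6 rose in each genotype. Kif11, the Eg5 motor that pushes the spindle poles apart, went from 808, 628 and 536 to 922, 994 and 1209.8 in WT, 1.6-fold (adjusted p = 0.00319), and from 818, 629 and 571 to 1255, 1534 and 1273 in Ern2-/-, 2.01-fold (adjusted p = 8.97e-05). Tpx2, which activates Aurora A on the spindle, went from 686, 525 and 366 to 926, 943 and 969, 1.81-fold (adjusted p = 0.00081), and from 663, 455 and 486 to 1135, 1094 and 939, 1.97-fold (adjusted p = 0.00023). These too were separated between the states. Hmmr, a microtubule-associated spindle protein, was at 393, 314 and 223 and 421, 459.8 and 545 in WT, 1.55-fold (adjusted p = 0.0225), which did not pass, and went from 404, 259.7 and 268 to 580.3, 734 and 573 in Ern2-/-, 2.02-fold (adjusted p = 0.00116). Kif15, a second motor that holds the poles apart, was among the largest rises in Ern2-/-, at 2.52-fold (adjusted p = 0.000141) beside 1.55-fold (adjusted p = 0.00219) in WT. The interaction for Kif15 was 0.71 ± 0.33 SE (adjusted p = 0.852).

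The 6 genes of cytokinesis, the final cleavage, all rose in Ern2-/- and 4 of them in WT. Prc1, which bundles the midzone microtubules, went from 711, 558 and 416 to 933, 984 and 946 in WT, 1.71-fold (adjusted p = 0.000963), and from 694, 495 and 497 to 1127, 1249 and 1052 in Ern2-/-, 2.03-fold (adjusted p = 5.95e-05). Anln, anillin of the contractile ring, was at 512, 373 and 279 and 434, 519 and 611 in WT, 1.35-fold (adjusted p = 0.159), and went from 415, 291 and 345 to 772, 813 and 636 in Ern2-/-, 2.11-fold (adjusted p = 4.09e-05). The WT ranges of Anln overlapped and the Ern2-/- ranges did not, while the test of the difference between them gave 0.65 ± 0.33 SE (adjusted p = 0.875). Kif23, the motor of the centralspindlin complex, rose by 1.68-fold in WT and 2.39-fold in Ern2-/-.

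Chromosome structure genes, the condensin subunits together with Top2a and Mki67, rose in 6 of 7 cases in each genotype. Mki67, the antigen of the Ki-67 proliferation stain, coats mitotic chromosomes. Its counts were 4691, 3590.2 and 2332 in GF-WT and 6863, 6221 and 7014 in COLONIZED-WT, 1.91-fold (95% interval 1.4 to 2.6, adjusted p = 0.000454), and 4283, 1556 and 3442 and 7819, 8969.97 and 6993 in the matching Ern2-/- groups, 2.56-fold (95% interval 1.62 to 4.04, adjusted p = 0.0012). Top2a, the topoisomerase that untangles sister chromatids, was counted at 2224, 1989 and 1199 and 3609, 3384 and 3863 in WT, 2.02-fold (95% interval 1.51 to 2.71, adjusted p = 4.95e-05), and at 2357, 1662 and 2006 and 4041, 5217 and 3893 in Ern2-/-, 2.18-fold (95% interval 1.63 to 2.91, adjusted p = 9.53e-06). Both were separated between the states in each genotype, with the GF-Ern2-/- replicate 2 count of Mki67 the lowest of all 18. Smc2, the ATPase common to both condensins, went from 469, 432 and 383 to 844, 708 and 814, 1.86-fold (adjusted p = 1.45e-07), and from 500.4, 401 and 553 to 861, 1309 and 1017, 2.18-fold (adjusted p = 7.12e-05). Ncapg, a condensin I subunit, was at 260.4, 185 and 157 and 282, 271 and 314 in WT, 1.45-fold (adjusted p = 0.0494), and went from 216, 152 and 168 to 332, 532 and 433 in Ern2-/-, 2.41-fold (adjusted p = 7.03e-05). Ncaph, the kleisin of the same complex, rose by 2.07-fold (adjusted p = 2.13e-08) in WT, and 944 exon bases of Ncapg are shared with Lcorl on the opposite strand.

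**Figure D2:**
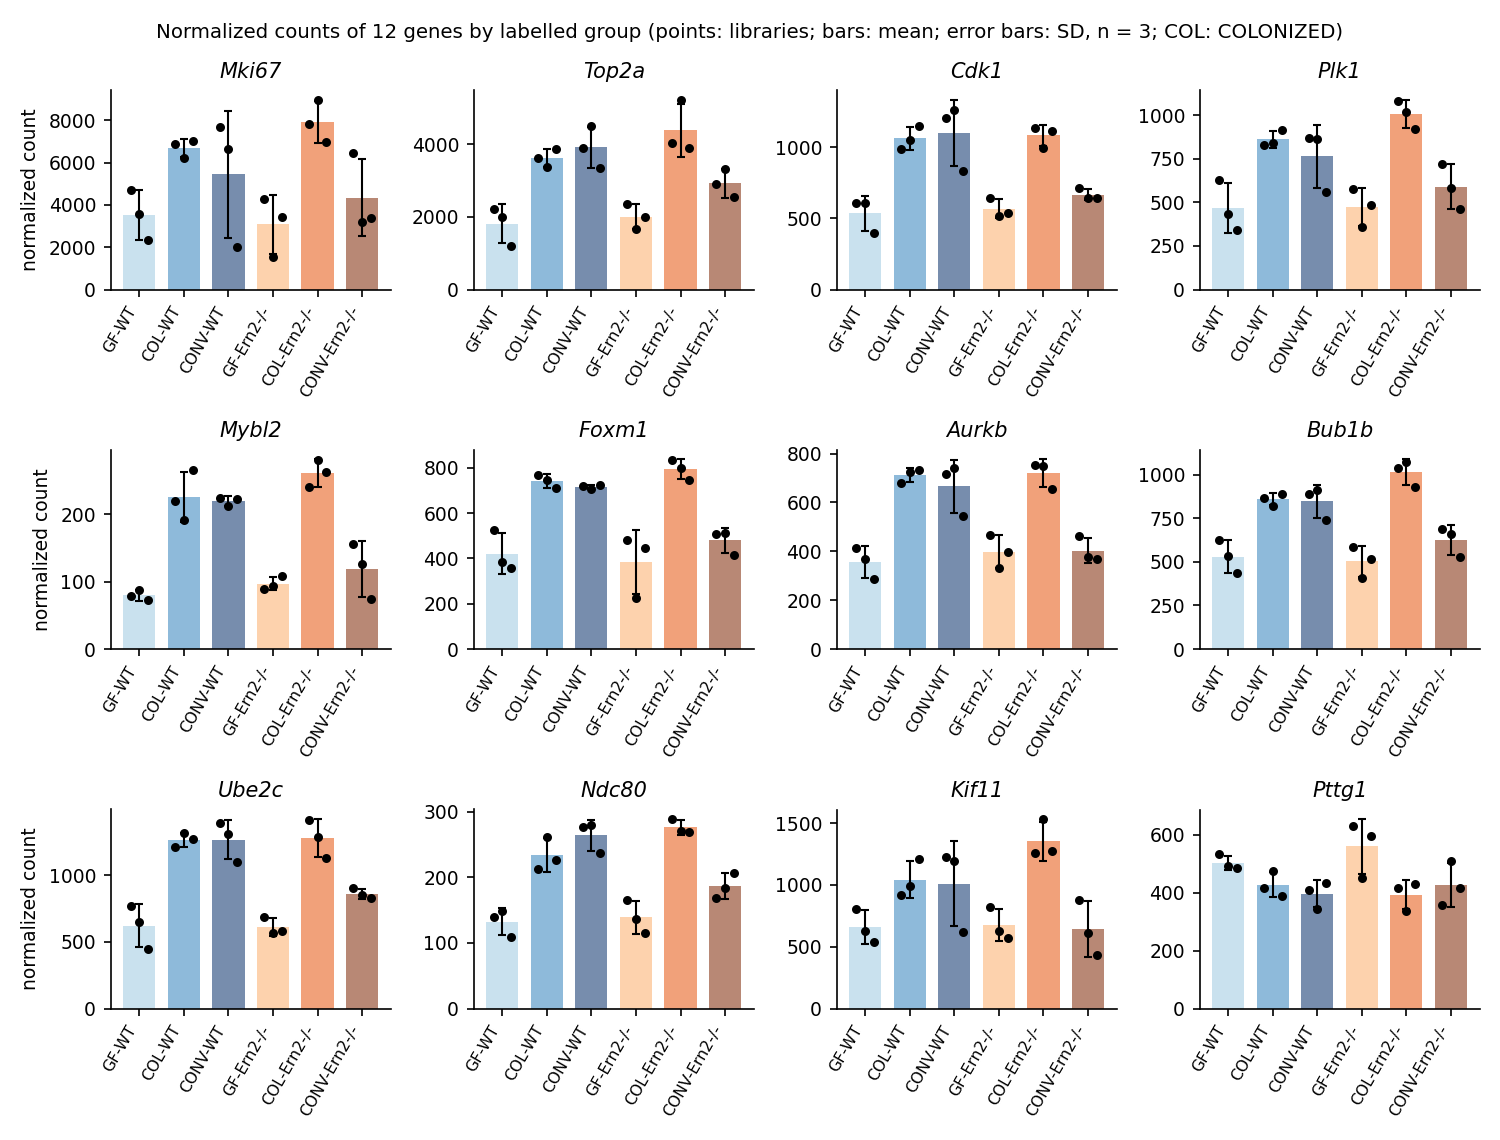
Normalized counts of 12 of the genes, with points for libraries, bars for group means and error bars for SD (n = 3). The panels other than Pttg1 show germ-free groups below colonized groups, such as Mybl2, whose mean was 79.4 ± 7.73 germ free and 225 ± 37.1 colonized in WT mice, and Pttg1 shows the opposite order.

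Between the genotypes within a state, none of the 47 genes was called. In germ-free mice the median difference, Ern2-/- against WT, was 0.02, with 28 genes positive and 19 negative and 0.035% of all genes called. None of the 47 had an unadjusted p under 0.05 with DESeq2 or with edgeR, and 46 of the 47 overlapped. In colonized mice the median was 0.21, with 38 positive, 1.2% of all genes called, and 16 genes at an unadjusted p under 0.05 with DESeq2 and 17 with edgeR, which called 0. There 21 genes did not overlap and were higher in COLONIZED-Ern2-/-, against 15.3% of all genes, and 2 were lower, against 13.7%. Bub1 had the largest difference, 0.69 ± 0.20 SE (adjusted p = 0.0201), with 249, 255 and 319 in COLONIZED-WT and 382, 548 and 404 in COLONIZED-Ern2-/-. The next smallest adjusted p was that of the condensin gene Smc4 (0.62 ± 0.20, adjusted p = 0.0415). Without COLONIZED-Ern2-/- replicate 1, 3 genes were called. Without COLONIZED-Ern2-/- replicate 2, in which long transcripts were highest, the adjusted p of Smc4 was 0.291 (DESeq2). The median over the 47 genes lay between 0.13 and 0.26 over the settings run. It was 0.29 in the genes of at least 6000 exon bases and 0.11 in the others, and the part of transcript length was not tested.

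CONV-WT against GF-WT sets conventional rearing beside germ-free rearing in WT mice, and the median change of the 47 genes was 0.78, with 46 estimates positive. DESeq2 called 16 of the 47 higher and none lower, against 5.68% of all genes called higher, and 27 did not overlap, against 18.1%. The count moved with single libraries, to 6, 3 and 39 without CONV-WT replicate 1, 2 or 3 and to 5 and 7 without GF-WT replicate 2 or 3, and it was 6 with sex as a covariate. By edgeR it was 0, with a lowest adjusted p of 0.0118 and 33 genes at an unadjusted p under 0.05. Among libraries without Y-linked counts, 46 of 47 genes were higher in the 2 CONV-WT libraries than in GF-WT, by a median of 0.69.

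The 8 largest called rises in CONV-WT belonged to Mybl2, Smc2, Cdca8, Spc24, Kif4, Top2a, Mad2l1 and Incenp. Mybl2 counts in CONV-WT were 224, 211 and 223, a rise of 2.75-fold (95% interval 2.09 to 3.61, adjusted p = 7.75e-11) over GF-WT. Smc2 stood at 974, 1360.03 and 714, 2.36-fold (adjusted p = 0.000336), and Top2a at 3900.3, 4494 and 3358, 2.16-fold (adjusted p = 0.00205). Cdca8 rose by 2.35-fold (adjusted p = 9.77e-12), Spc24 by 2.24-fold (adjusted p = 0.000131) and Kif4, a chromokinesin, by 2.24-fold (adjusted p = 1.34e-05). Mad2l1 was counted at 824, 839 and 566, 2.15-fold (adjusted p = 0.000746), and Incenp, the scaffold of the passenger complex, rose by 2.07-fold (adjusted p = 0.00208). In the remaining lead genes that were called, counts were 1204, 1262 and 833 for Cdk1, 719.5, 708 and 723 for Foxm1, 717, 739.8 and 542 for Aurkb and 813, 824 and 588 for Birc5. They were 1391, 1308 and 1103 for Ube2c, 711, 855 and 572 for Cenpa and 276, 279.5 and 237 for Ndc80. Adjusted p-values of these 7 lay between 0.000142 and 0.00491, and each had its 3 CONV-WT libraries above the GF-WT libraries.

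Where a lead gene was not called in CONV-WT, replicate 3 was the low library. It was also the lowest in the called lead genes other than Mybl2 and Foxm1, so this did not set the uncalled genes apart. Mki67 was counted at 7704, 6629 and 2029, and its estimate was 1.53-fold (95% interval 0.765 to 3.06, adjusted p = 0.443). Cenpf was at 1092, 1081 and 604, Hmmr at 599, 592 and 189.9 and Ncapg at 323, 454 and 131. Their adjusted p-values were 0.223, 0.447 and 0.423. Counts of Ccnb1 were 416, 508 and 270.3, of Plk1 869, 863 and 557, of Bub1b 887, 914 and 739.6 and of Cdc20 968, 944 and 734. Counts of Kif11 were 1224, 1192 and 617, of Tpx2 1040.2, 987 and 719, of Prc1 958, 1012 and 632 and of Anln 667, 601 and 338. In all 12 genes replicates 1 and 2 exceeded all GF-WT counts. Against COLONIZED-WT, CONV-WT was centred on no difference, with a median of 0.00, 24 genes positive, none called (0.108% of all genes) and none at an unadjusted p under 0.05 with DESeq2 or edgeR. The estimate for Cdk1 was 0.04 ± 0.21 SE and for Mki67 -0.31 ± 0.46 SE. With the library total as a covariate the Mki67 estimate was positive and passed the threshold, as given below.

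In conventionally raised Ern2-/- mice part of the genes were lower than in colonized Ern2-/- mice. DESeq2 called 21 of the 47 genes lower and none higher, against 3.73% of all genes called lower, with a median of -0.69, and 40 genes did not overlap, against 18.2%. This count was 5, 5 and 8 without COLONIZED-Ern2-/- replicate 1, 2 or 3, 11 and 6 without CONV-Ern2-/- replicate 2 or 3, and 8 with sex as a covariate. With the library total as a covariate, which differed between the groups (5.87 to 15.4 against 14.0 to 20.2, in units of 1e6 counts), it was 0, and with edgeR 0, though 39 genes had an unadjusted p under 0.05 there. Among libraries with Y-linked counts 44 of 47 genes were lower, by a median of -0.76.

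Nuf2, a partner of Ndc80, fell the most, from 331, 432 and 318 in COLONIZED-Ern2-/- to 182, 119.98 and 121 in CONV-Ern2-/-, a change of -1.32 ± 0.27 SE on the log2 scale (adjusted p = 3.54e-05). Bub1 fell to 221, 209 and 185, by 1.10 ± 0.23 (adjusted p = 9.41e-05), and Mybl2 to 156, 127 and 74.5, by 1.09 ± 0.29 (adjusted p = 0.00247). Nuf2 stood at 0.400 of the colonized level, Bub1 at 0.466 and Mybl2 at 0.469. Kif11 fell to 880.3, 613 and 433, by 1.06 ± 0.26 (adjusted p = 0.00137), and Ncapg to 258, 187 and 212, by 0.96 ± 0.26 (adjusted p = 0.00291). Kif15 fell by 0.97 ± 0.28, Ncaph by 0.93 ± 0.24 and the checkpoint kinase Ttk by 0.89 ± 0.25. By role, the falls took in 5 of 7 spindle motors and microtubule proteins, 4 of 5 checkpoint genes, 5 of 8 cyclins, kinases and factors, 3 of 6 cytokinesis genes, 2 of 7 chromosome structure genes, 1 of 7 kinetochore genes, 1 of 4 passenger genes and 0 of 3 anaphase genes. Differences between roles were not tested.

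Among the lead genes that fell, CONV-Ern2-/- counts were 716, 642 and 646 for Cdk1, 722, 579.9 and 464 for Plk1, 509.6, 513 and 414 for Foxm1 and 463, 378 and 367 for Aurkb. They were 687, 659.9 and 527 for Bub1b, 433, 538 and 397 for Mad2l1, 667, 747 and 502 for Tpx2, 358, 327 and 337 for Hmmr and 712, 673 and 508 for Prc1. Adjusted p-values ran from 0.000273 for Hmmr to 0.00662 for Tpx2. Of those that did not pass, Mki67 was counted at 6462, 3199 and 3383 (-0.86 ± 0.28 SE, adjusted p = 0.0203) and Top2a at 2894, 3319 and 2544 (-0.58 ± 0.19, adjusted p = 0.0216). Ccnb1 was at 326, 227 and 334, Birc5 at 542, 504 and 618, Cdc20 at 673, 702 and 624, Ube2c at 902, 849 and 833 and Anln at 526, 358 and 212. Ndc80 was at 168, 184 and 207, Cenpf at 956, 779.9 and 659, Smc2 at 624, 1004 and 880.2 and Cenpa at 459, 602 and 590.5. Of these only Smc2 and Cenpa overlapped the COLONIZED-Ern2-/- counts, and the Cenpa estimate was -0.02 ± 0.20 SE. Pttg1 was again on the other side of 0, at 0.12 ± 0.22 SE, with counts of 357, 509 and 417.

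Set against germ-free Ern2-/- mice, the conventionally raised ones showed a median of 0.31, with 41 of 47 estimates positive and none called, against 4.1% of all genes, while 18 did not overlap and were higher, against 11.5%. The lowest adjusted p was that of Cdca8, at 0.96 ± 0.29 SE (adjusted p = 0.02), and 12 genes had an unadjusted p under 0.05 with DESeq2 and 12 with edgeR, which called 0. Leaving out CONV-Ern2-/- replicate 1 gave 3 calls. Against CONV-WT, CONV-Ern2-/- had 46 of 47 estimates negative with a median of -0.46, and Mybl2 had the largest difference (-0.85 ± 0.33 SE, adjusted p = 0.115). None was called, against 2.87% of all genes, and 16 did not overlap and were lower, against 11.5%; 15 had an unadjusted p under 0.05 with DESeq2 and 15 with edgeR, which called 0. Without CONV-WT replicate 3, 9 of the 47 were called, and the share of all genes called in that fit is not given. Nusap1, a microtubule-bundling protein, had the lowest adjusted p, 0.0283, at -0.82 ± 0.25 SE. In stained sections of distal colon the study saw longer crypts and a larger Ki-67 zone in conventionally raised Ern2-/- mice than in WT. Those are stained cells in tissue sections, while the counts here are RNA of isolated crypts, and how they relate was not tested.

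Whether the genotypes responded differently to conventional rearing was tested by interactions. Over the GF and CONV libraries the median interaction was -0.45, with 44 of 47 estimates negative and none called, against 0.177% of all genes, and 7 at an unadjusted p under 0.05 with DESeq2 and 5 with edgeR, which called 0. It was -0.74, with 1 gene called, when CONV-WT replicate 3 and GF-Ern2-/- replicate 2 were both left out, an alternative added after the values were seen. Other libraries came near or beyond these on the Mki67 ratio and on transcript length, so the choice of these 2 is not the only one possible. Over the COLONIZED and CONV libraries, a test also added after the values were seen, 46 of 47 estimates were negative with a median of -0.67, and Kif4 alone was called, against 0.325% of all genes. Kif4 counts were 745, 735 and 729 in COLONIZED-WT, 924, 829 and 794 in CONV-WT, 846, 867 and 747 in COLONIZED-Ern2-/- and 551, 604 and 602 in CONV-Ern2-/-, an interaction of -0.70 ± 0.16 SE (adjusted p = 0.00574). The count was 24 without CONV-WT replicate 3, 3 without CONV-Ern2-/- replicate 2, 1 without COLONIZED-Ern2-/- replicate 3 or CONV-Ern2-/- replicate 1, and 0 without any 1 of the other 8 libraries. With edgeR it was 0, with 25 genes at an unadjusted p under 0.05. Kif4 was also one of 5 of the 47 genes with every Ern2-/- library below every WT library when conventionally raised and above every WT library when colonized, against 0.633% of all genes tested in both comparisons. Mybl2 alone was lower without overlap when conventionally raised and higher when germ free, against 0.249%. Both patterns were noticed in these values. Kif4 shares 832 exon bases with Pdzd11 on the opposite strand.

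**Figure D3:**
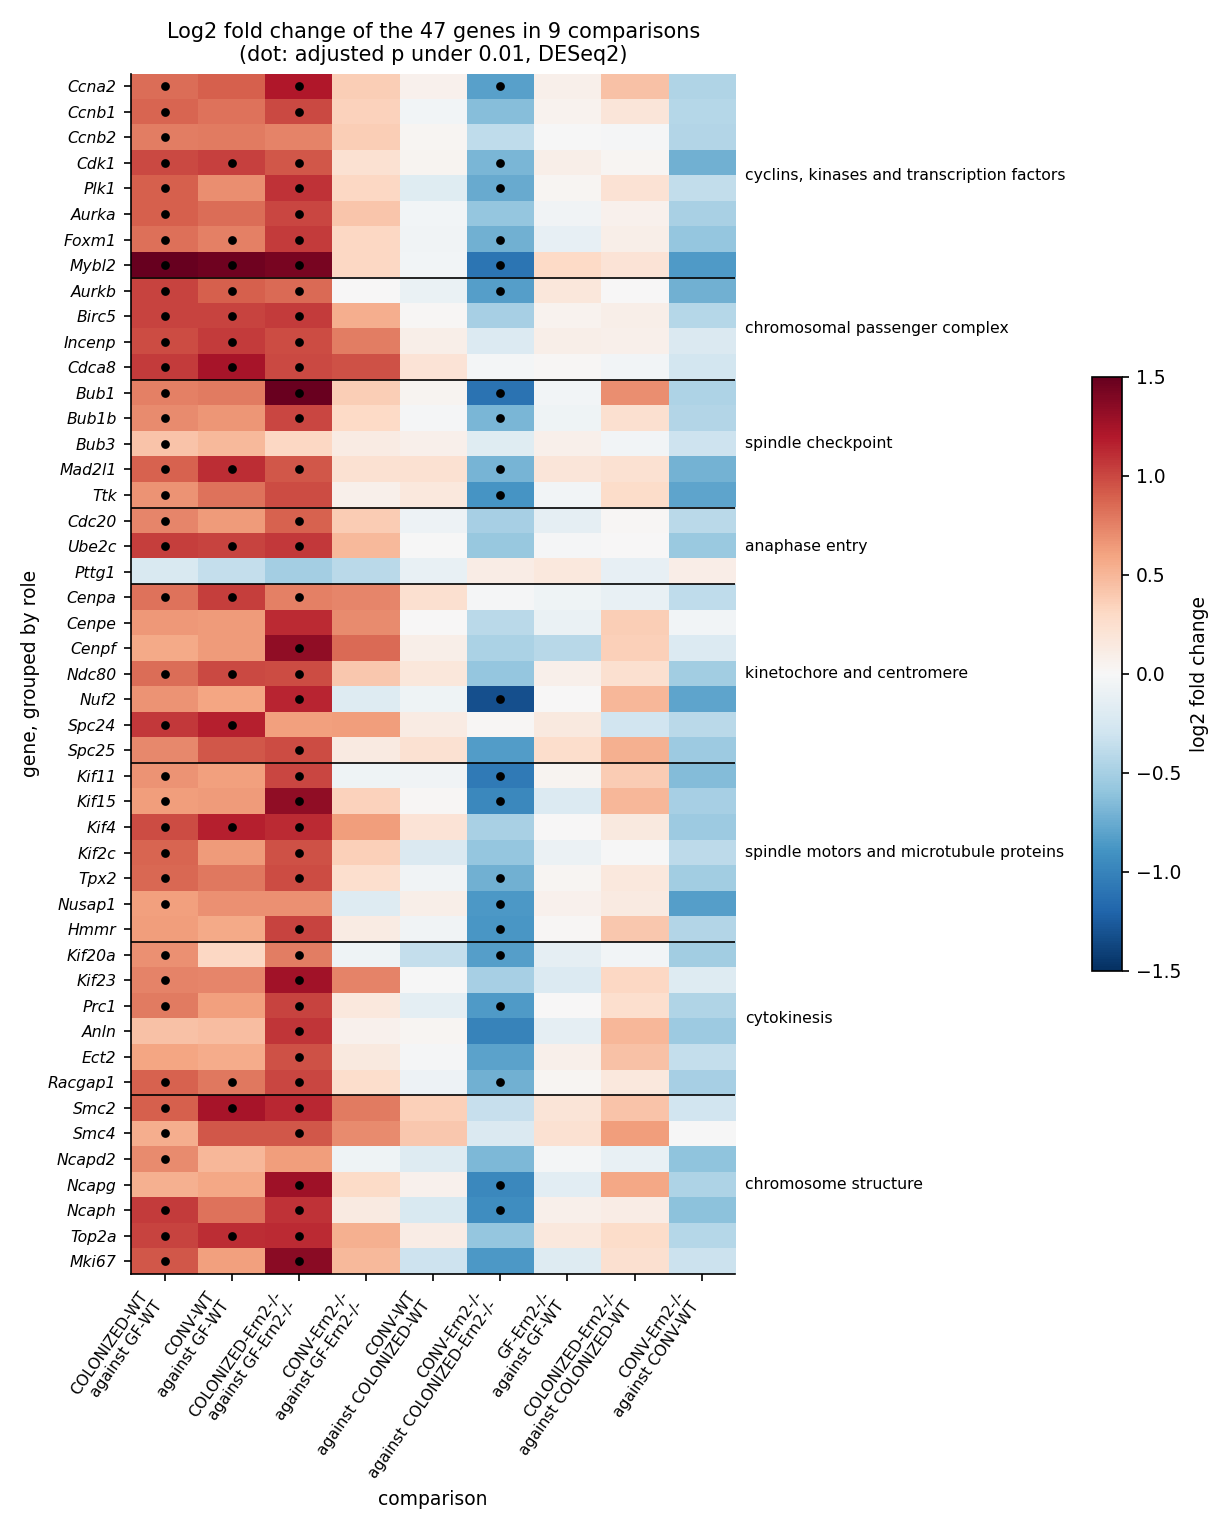
Log2 fold changes of the 47 genes, grouped by role, in 9 comparisons between groups, with a dot where the adjusted p was under 0.01 (DESeq2). Dots number 38, 16 and 39 in the first 3 columns, where colonized or conventional groups are set against germ-free ones, and 21 in the column for CONV-Ern2-/- against COLONIZED-Ern2-/-, where the colours are reversed.

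Other cell cycle genes were grouped by function. Of 86 further mitosis and G2/M genes 40 were called higher and 0 lower in COLONIZED-WT against GF-WT (median 0.70) and 36 and 0 in the Ern2-/- comparison (median 0.89), where 9.07% and 3.83% of all genes were called higher. In CONV-WT against GF-WT 19 were higher (5.68% of all genes), and in CONV-Ern2-/- against COLONIZED-Ern2-/- 24 were lower (3.73% of all genes). Cks1b, a Cdk-binding subunit, rose by 1.35 ± 0.21 SE on the log2 scale in COLONIZED-WT (adjusted p = 7.31e-09), and Ska1, of the outer kinetochore, by 1.24 ± 0.29 SE (adjusted p = 0.000302). Casc5, the KNL1 scaffold of the kinetochore, differed between the colonized groups and was higher in the libraries labelled Ern2-/- (log2 fold change 1.16 ± 0.25 SE, adjusted p = 0.000555), as was the kinesin Kif20b (0.73 ± 0.19, adjusted p = 0.00884).

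Of 40 DNA replication and S phase genes, 34 rose in COLONIZED-WT (median 1.09), 25 in CONV-WT (median 0.96) and 20 in COLONIZED-Ern2-/- (median 0.67), each against germ free, and none fell. The shares of all genes called higher there were 9.07%, 5.68% and 3.83%. The helicase subunit Mcm3 rose by 1.70 ± 0.20 SE in COLONIZED-WT (adjusted p = 9.37e-15) and the origin-loading factor Cdc6 by 1.73 ± 0.25 SE in COLONIZED-Ern2-/- (adjusted p = 2.00e-09). In CONV-Ern2-/- 12 were lower than in COLONIZED-Ern2-/- (median -0.63, against 3.73% of all genes), and 3 were lower than in CONV-WT (1.86% of all genes), namely Prim2 (-1.03 ± 0.27 SE), Gins2 (-0.95 ± 0.22) and Chaf1b (-0.88 ± 0.22), with adjusted p-values of 0.00464, 0.00117 and 0.0032. The median of these genes was higher than that of the mitotic genes in COLONIZED-WT and lower in COLONIZED-Ern2-/-, a difference that was not tested. For Ern2-/- against WT, the S phase genes had a median of 0.26 in germ-free mice, with 39 of 40 estimates positive. In colonized mice it was -0.05, with 17 of 40 positive. None was called in either, where 0.035% and 1.2% of all genes were.

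Of 19 G1 cyclins, kinases and E2F factors 9 rose in COLONIZED-WT and 5 in COLONIZED-Ern2-/-, against 9.07% and 3.83% of all genes. Ccnd1, the cyclin D1 of G1 entry, rose by 1.58 ± 0.17 SE in COLONIZED-WT (adjusted p = 6.12e-18) and by 1.74 ± 0.28 SE in COLONIZED-Ern2-/- (adjusted p = 4.93e-08), and E2f1 by 1.63 ± 0.24 SE in COLONIZED-WT (adjusted p = 9.11e-10). Of 14 cell cycle inhibitors tested, 6 were lower and 2 higher in COLONIZED-WT (median -0.41), and 3 were lower and none higher in COLONIZED-Ern2-/- (median -0.04, 6 estimates positive), where 8.7% and 3.82% of all genes were called lower and 9.07% and 3.83% higher. Cdkn1a, the p21 inhibitor, fell in both, in WT from 4563 ± 1539 to 1601 ± 587 normalized counts (SD, n = 3, adjusted p = 8.41e-06 with DESeq2) and in Ern2-/- with a log2 estimate of -1.53 ± 0.15 SE (adjusted p = 4.71e-21), and was higher in CONV-Ern2-/- than in COLONIZED-Ern2-/- by 1.52 ± 0.26 SE (adjusted p = 4.28e-07).

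Markers of other crypt cells moved beside these results. The 8 surface colonocyte markers at hand of 10 listed, genes of the differentiated absorptive cells, summed to 36843 to 190187 normalized counts in GF-WT, 82848 to 181456 in COLONIZED-WT and 101469 to 178384 in COLONIZED-Ern2-/-. In CONV-Ern2-/- the sum was 327748 to 434898, with 7 of 8 called higher than in COLONIZED-Ern2-/- (median 1.58, against 4.86% of all genes called higher), and it was 300408 in CONV-WT replicate 3 and 461151 in GF-Ern2-/- replicate 2, against 40683 to 81229 in the other 4 libraries of those groups. The 11 stem cell and Wnt markers summed to 8418 to 13639 in CONV-Ern2-/-, 8712 in CONV-WT replicate 3 and 10933 in GF-Ern2-/- replicate 2, and to 14035 to 24253 in the other 13 libraries. In 9 goblet markers the sum was 67308 to 85892 in CONV-Ern2-/- and 91588 in CONV-WT replicate 3, against 547588 and 622010 in the other CONV-WT libraries. None of these 28 markers was at 0 throughout a group. The CONV-Ern2-/- libraries, CONV-WT replicate 3 and GF-Ern2-/- replicate 2 thus had the 5 highest surface and the 5 lowest stem marker sums, with mitotic levels below those of all colonized libraries. The other germ-free libraries had mitotic levels below all colonized ones as well, at surface sums of 36843 to 190187. Surface markers also moved with the rise after colonization. Of the 8, 2 were called lower and none higher in COLONIZED-WT against GF-WT, with a median of -1.34 and 8.7% of all genes called lower. In COLONIZED-Ern2-/- against GF-Ern2-/- 4 were called lower and none higher, with a median of -1.43 and all 8 estimates negative, against 3.82% of all genes. In CONV-WT against GF-WT 3 were called lower, with a median of -1.45, against 5.28%. The ranges of the sums overlapped between germ-free and colonized libraries in both genotypes. Goblet markers moved in the same comparisons. Of the 9, 5 were called higher and 2 lower in COLONIZED-WT against GF-WT (median 1.10), against 9.07% and 8.7% of all genes. In COLONIZED-Ern2-/- against GF-Ern2-/- 3 were higher and 1 lower (median 0.68), against 3.83% and 3.82%, and in CONV-WT against GF-WT 2 were higher and 2 lower (median 0.92), against 5.68% and 5.28%. In CONV-Ern2-/- 4 of the 9 were lower than in COLONIZED-Ern2-/- (median -1.21, against 3.73% of all genes), 4 were lower than in GF-Ern2-/- (median -0.05, against 2.63%) and 5 were lower than in CONV-WT (median -2.09, against 1.86%). In COLONIZED-Ern2-/- 3 were lower than in COLONIZED-WT (median -0.82, against 0.75%). Of the 11 stem cell and Wnt markers, 2 were called higher in COLONIZED-WT and 1 in COLONIZED-Ern2-/-, each against germ free, where 9.07% and 3.83% of all genes were. COLONIZED-Ern2-/- had 2 called lower against COLONIZED-WT (0.75% of all genes), and CONV-Ern2-/- had 1 called lower against CONV-WT (1.86%) and 1 against COLONIZED-Ern2-/- (3.73%). Mesenchymal markers had 2 called higher and 1 lower of 9 tested in CONV-WT against GF-WT (median 3.71), against 5.68% and 5.28% of all genes, and 2 higher of 9 in CONV-Ern2-/- against COLONIZED-Ern2-/- (median 2.67), against 4.86%. In COLONIZED-Ern2-/- against GF-Ern2-/- 1 of 3 was lower (3.82% of all genes), and in CONV-Ern2-/- against GF-Ern2-/- 1 of 9 was higher (1.47%) and 1 lower (2.63%). Of 3 endothelial markers tested, 1 was higher in CONV-Ern2-/- than in COLONIZED-Ern2-/- (4.86% of all genes) and 1 lower in COLONIZED-Ern2-/- than in GF-Ern2-/- (3.82%), and no immune or glial marker tested was called in any comparison. Surface markers also differed by genotype, with 5 of 8 higher in CONV-Ern2-/- than in CONV-WT (median 1.82), against 1.02% of all genes. Markers moved with the interactions too. In that over COLONIZED and CONV all 8 surface estimates were positive (median 1.80) and 2 were called, against 0.325% of all genes, while 8 of 9 goblet estimates were negative (median -1.17) and none was called. In that over GF and CONV all 8 surface estimates were positive (median 1.99) and 1 was called, against 0.177%, and 8 of 9 goblet (median -1.35) and all 11 stem estimates (median -0.49) were negative with none called. The part of crypt composition in the mitotic results was not tested.

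**Figure D4:**
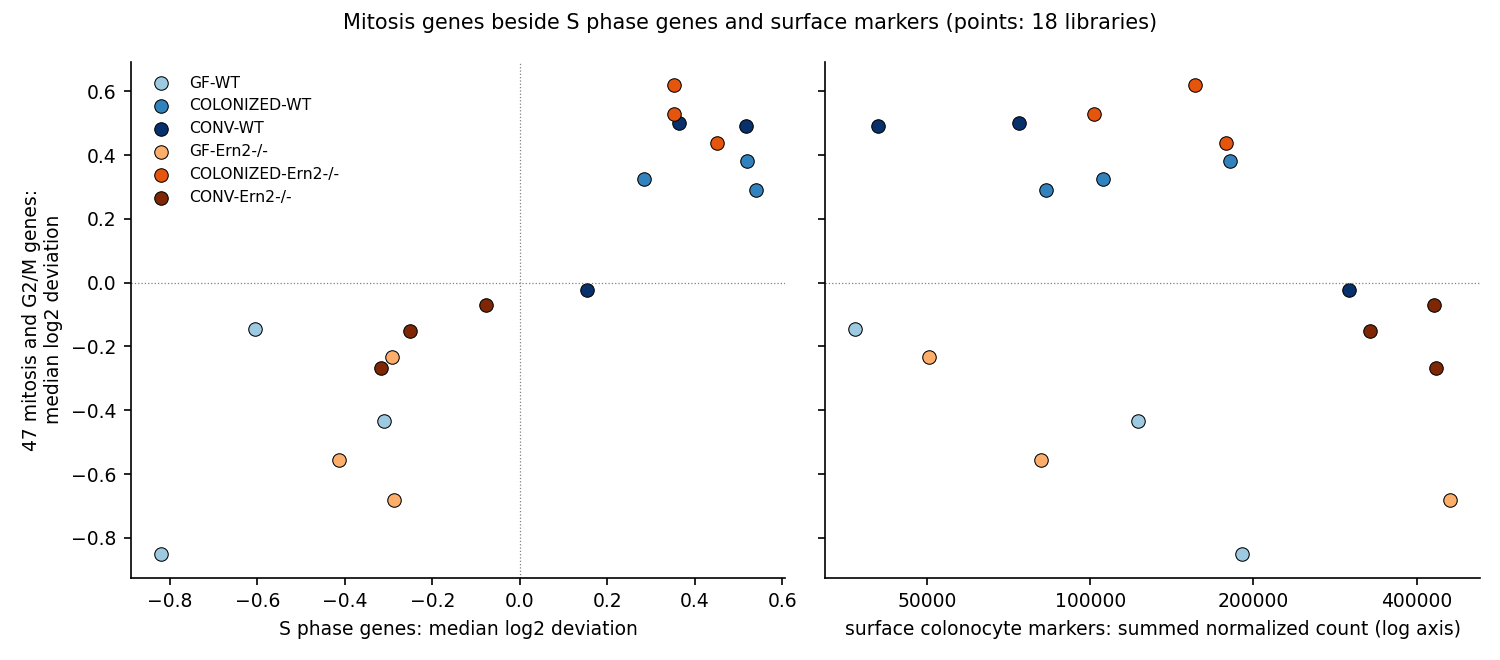
The median log2 deviation of the 47 genes in each of the 18 libraries, against that of the DNA replication and S phase genes (left) and against the summed normalized counts of 8 surface colonocyte markers on a log axis (right). COLONIZED libraries lie at the upper right on the left panel and GF libraries at the lower left, and the 5 libraries with the highest surface marker sums, from 300408 up, lie below 0 on the vertical axis. The other GF libraries lie below 0 too, at surface marker sums of 36843 to 190187.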

How the data were processed

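Colon crypt RNA from 18 libraries, 3 in each of 6 groups, was sequenced after KAPA stranded mRNA preparation. The deposited table holds raw counts per gene, which the authors made with STAR on mm10 in their VIPER pipeline. The submitters' processing notes name STAR, DESeq2 and mm10, and whether counting used strand is not given in the sources used here. The table's columns were matched to samples by their names, and 0 columns belonged to no sample. Library totals of 5.87 to 23.2 (in units of 1e6 counts) leave every member gene with at least 27 counts, and at the low end counting error adds to the spread between libraries.

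Each comparison was fitted with DESeq2 1.42.0 (R 4.3.3) on its own 6 libraries, or 12 for an interaction, with Benjamini-Hochberg adjusted p under 0.01 over all genes tested. Alternatives were edgeR 4.0.16 (quasi-likelihood test), TMM size factors, a filter of 10 counts in 3 libraries, all 18 libraries in 1 fit, a replicate block, sex (from Xist and Y-linked counts) and the library total as covariates, and each library left out. The interaction over COLONIZED and CONV and the fit without 2 libraries at once were added after the values were seen. The code of the fits was run on simulated counts with known changes, and the results of that run are not given here. Intervals of folds are 95%, at 1.96 standard errors.

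The 47 genes, their 8 roles, the other lists and the tests were chosen with earlier results of these data known. Genes named were 23 lead genes, with values in every library, the 8 called genes with the largest change in each comparison, and up to 3 called genes of each other list. Ccnb2, Bub3, Cenpe, Smc4, Nusap1, Racgap1 and Pttg1 were named after their values were seen. Exon overlaps came from GENCODE M21 and promoters from RefSeq GRCm38.p6.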

Additional observations from a re-analysis of the deposited data

Results flagged for a closer look

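In 5 genes every Ern2-/- library lay below every WT library when conventionally raised and above every WT library when colonized, a pattern shown by 83 of the 13107 genes tested in both comparisons (0.633%). Kif4 was one, and its CONV libraries also lay above all COLONIZED libraries in WT and below them in Ern2-/-, with an interaction of -0.70 (adjusted p = 0.00574, DESeq2). The others were Bub1b at -0.67 (adjusted p = 0.0491), Ndc80 at -0.77 (adjusted p = 0.0411), Racgap1, a regulator of the contractile ring, at -0.65 (adjusted p = 0.0491) and Top2a at -0.70 (adjusted p = 0.105). Only Kif4 passed, and by edgeR none did. Mybl2 was lower in every Ern2-/- library than in every WT library when conventionally raised and higher when germ free, an interaction of -1.13 (adjusted p = 0.125) that did not pass, and 33 of 13232 genes (0.249%) showed this pattern.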

How the results depend on the processing

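Medians over the 47 genes kept their sign in every setting run for COLONIZED against GF in WT (0.60 to 0.98) and Ern2-/- (0.95 to 1.15), for CONV-WT against GF-WT (0.62 to 1.12) and for CONV-Ern2-/- against COLONIZED-Ern2-/- (-0.75 to -0.53). Counts of calls moved more, and the cause was not tested. Shares of all genes called are not given for settings other than the main fit and edgeR, so the counts there cannot be set against them. With edgeR the counts were 12 for COLONIZED-WT against GF-WT and 0 for COLONIZED-Ern2-/- against GF-Ern2-/-, for CONV-WT against GF-WT, for CONV-Ern2-/- against COLONIZED-Ern2-/- and for the interaction over COLONIZED and CONV. In 1 fit of all 18 libraries they were 28 for CONV-WT against GF-WT, 11 for CONV-Ern2-/- against COLONIZED-Ern2-/-, 4 for CONV-Ern2-/- against CONV-WT, 1 for CONV-Ern2-/- against GF-Ern2-/- and 0 for that interaction. With sex as a covariate they were 5 for COLONIZED-WT and 6 for CONV-WT against GF-WT and 8 for CONV-Ern2-/- against COLONIZED-Ern2-/-. With the library total they were 18 and 8 for COLONIZED-WT and CONV-WT against GF-WT, 2 for CONV-WT against COLONIZED-WT, 0 for CONV-Ern2-/- against COLONIZED-Ern2-/- and 4 for the interaction, which the low-count filter put at 2.

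Leaving out 1 library gave 21 to 45 calls for COLONIZED-WT and 3 to 39 for CONV-WT against GF-WT, 24 to 42 for COLONIZED-Ern2-/- and 0 to 3 for CONV-Ern2-/- against GF-Ern2-/-. It gave 5 to 28 for CONV-Ern2-/- against COLONIZED-Ern2-/-, 0 to 9 for CONV-Ern2-/- against CONV-WT, 0 to 3 for COLONIZED-Ern2-/- against COLONIZED-WT and 0 to 24 for the interaction over COLONIZED and CONV. Without CONV-WT replicate 3 and GF-Ern2-/- replicate 2 together the interaction over GF and CONV called 1. With a replicate block the counts were 33 and 40 for COLONIZED against GF in WT and Ern2-/-, 19 for CONV-WT against GF-WT, 19 for CONV-Ern2-/- against COLONIZED-Ern2-/- and 0 for the interaction over COLONIZED and CONV. In no comparison did all 3 same-numbered pairs correlate above 0.1 in their deviations. They were at 0.51, 0.096 and 0.28 for COLONIZED-Ern2-/- against GF-Ern2-/- and 0.19, 0.13 and 0.088 for CONV-WT against COLONIZED-WT. There each library of the first-named group correlated best with its own number. With 3 libraries a group these values cannot decide whether the numbers pair the samples.

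Single estimates of Mki67 and Cdk1 changed sign, and not all were near 0 in the main fit, where Mki67 was at -0.32 for CONV-Ern2-/- against CONV-WT. With the library total Mki67 was at 0.40 for CONV-Ern2-/- against CONV-WT, 0.75 for CONV-WT against COLONIZED-WT (past the threshold with DESeq2) and 0.16 for the interaction over GF and CONV. Leaving out 1 library gave Mki67 estimates of -0.74 to 0.019 for CONV-Ern2-/- against CONV-WT, -0.48 to 0.12 for GF-Ern2-/- against GF-WT and -0.64 to 0.084 for CONV-WT against COLONIZED-WT, and with the fit without 2 libraries -0.85 to 0.20 for the interaction over GF and CONV. For Cdk1 they were -0.088 to 0.19 for GF-Ern2-/- against GF-WT, -0.023 to 0.081 for COLONIZED-Ern2-/- against COLONIZED-WT, -0.062 to 0.20 for CONV-WT against COLONIZED-WT and -0.16 to 0.11 for the interaction over GF and COLONIZED. Sex and library depth were uneven between groups, 3 libraries a group leave counts of calls imprecise, and the share of dividing cells cannot be told apart from their RNA content.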

Other observations

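Further lists held partners of the mitotic genes. Of the 5 genes of the MuvB core, the complex that B-Myb joins at CHR elements, none was called in any of the comparisons. Of 17 subunits and regulators of the anaphase promoting complex, 2 rose in COLONIZED-WT against GF-WT, Anapc15 and the enzyme Ube2s, and 1 in COLONIZED-Ern2-/- against GF-Ern2-/-, Fbxo5, an inhibitor of the complex (1.04 ± 0.27 SE, adjusted p = 0.002, DESeq2). Over all genes 9.07% and 3.83% were called higher, near the shares of this list, so the counts say nothing particular to it. Fbxo5 was also the 1 member of that list lower in CONV-Ern2-/- than in COLONIZED-Ern2-/- (-1.01 ± 0.24 SE, adjusted p = 0.000799), where 3.73% of all genes were called lower. Anapc15 was the 1 called in CONV-WT against GF-WT (0.99 ± 0.20 SE, adjusted p = 2.11e-05), where 5.68% of all genes were called higher. These counts too say nothing particular to the list.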
